A study of Mus musculus with 2 samples.

Results

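Chromosomes 7 and 9 held fewer LSD1 peaks per Mb than the 17 other mouse autosomes in differentiating C2C12 cells. The 762 peaks described here are all entries placed on these 2 chromosomes, 408 on chromosome 7 and 354 on chromosome 9, out of 11797 peaks in the authors' deposited list. The unlocalised sequence of each chromosome held 1 further peak, which was not a member. The pair was chosen because its peak numbers in this list were low, so the low density itself is a description and not a finding. The question was whether the low number ran evenly along each chromosome or came from parts of it.

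The list came from 1 chromatin immunoprecipitation sequencing (ChIP-seq) library made with an anti-LSD1 polyclonal antibody and 1 input library, which is chromatin sequenced without antibody. Both came from C2C12, an established mouse myoblast line that forms myotubes in low serum, kept for 48 h in medium with horse serum. Chromatin was fixed with formaldehyde and disuccinimidyl glutarate, a longer crosslinker between proteins, so a peak can also mark LSD1 that touches DNA through partners. With 1 list there is no replicate error, and chromosomes, windows and peaks of 1 list are not replicates, so no test was run. Intervals are exact 95% binomial intervals, cover counting error only, and are too narrow where peaks lie in groups.

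LSD1 (KDM1A) is a flavin-dependent enzyme that takes methyl groups off lysines of histone H3. It works inside larger complexes, among them the CoREST and NuRD corepressors, and takes part in the gene switches of muscle differentiation. Chromosome 7 carries Myod1, which encodes a master regulator of muscle fate, as well as imprinted gene clusters, and both chromosomes carry clusters of olfactory receptor genes. Peak positions are in mm9, for which no gene annotation was used here, so no peak below is tied to a gene, exon or intron.

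Chromosome 7 had 2.75 peaks per Mb over its span of 148 Mb from first to last peak, and chromosome 9 had 2.93 over 121 Mb. The next autosomes in order were chromosome 19 with 3.47, chromosome 6 with 3.50 and chromosome 2 with 3.53 peaks per Mb, and the densest was chromosome 15 with 10.4. Relative to the 17 other autosomes pooled (4.71 peaks per Mb), the density was 0.584 on chromosome 7 (interval 0.528 to 0.645) and 0.622 on chromosome 9 (0.558 to 0.692). The pooled value is raised by a few dense chromosomes: relative to the median of the 17 densities the ratios were 0.687 and 0.732. Chromosome 7 relative to chromosome 9 was 0.939, with an interval of 0.812 to 1.09 that includes equal densities. How many copies of each chromosome these cells carry, and the input reads over them, were not analysed here.

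The low number had a different make-up on each chromosome. Windows of 1 Mb were grouped by how many peak starts they held, and the contribution of each class to the mean per window was compared. On chromosome 9, windows of 1 to 9 peaks gave 2.82 peaks per window, against 2.99 on the other autosomes pooled, and 5 of the 17 were lower. Relative to the pooled others, chromosome 9 lacked mainly full windows. Only 1 of its 122 windows (0.820%) held 10 or more peaks, against 9.51% on the other autosomes. Windows of 10 or more gave 0.0820 peaks per window there, against 1.69 on the others pooled and 0.327 on chromosome 6, the lowest of the 17. Over the windows under 10 peaks, empty ones included, the mean of 2.84 was nonetheless the lowest after chromosome 7 (2.27), by a small margin to chromosome 14 (2.85). Windows of 10 or more held 90.4% of the difference between chromosome 9 and the pooled others. With full windows taken as 15 or more peaks that share was 60.3%. Both shares hold for the pooled reference, which dense chromosomes raise. Chromosomes 19, 6 and 2, the nearest in density, gave 3.11 peaks per window from windows of 1 to 9 and 0.377 from fuller ones. Chromosome 9 was below them in both classes.

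Relative to the pooled others, chromosome 7 was low in both kinds of window. Its windows of 1 to 9 peaks gave 2.17 peaks per window, below all of the 17 others (2.34 to 3.48), and they held 42.0% of its difference to the pooled others. Within that class it was the windows of 4 to 9 peaks that were scarce, giving 1.28 peaks per window against 1.60 to 2.73 on the 17 others. Windows of 1 to 3 peaks gave 0.899, which lay in the middle of the others. Full windows gave 0.564 peaks per window, more than on 4 of the 17 others, and held the remaining 58.0% of the difference. Against chromosomes 19, 6 and 2 pooled, chromosome 7 was not low in full windows, which gave 0.377 there. That comparison rests on 6 full windows with 84 peaks in all, and the 2 fullest of them held 22 and 18. Chromosome 7 was low in windows of 1 to 9 peaks, which gave 3.11 on chromosomes 19, 6 and 2. A chromosome with a lower rate also has fewer full windows by construction, so these shares describe where the difference lies and not how it arose.

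**Figure D1:**
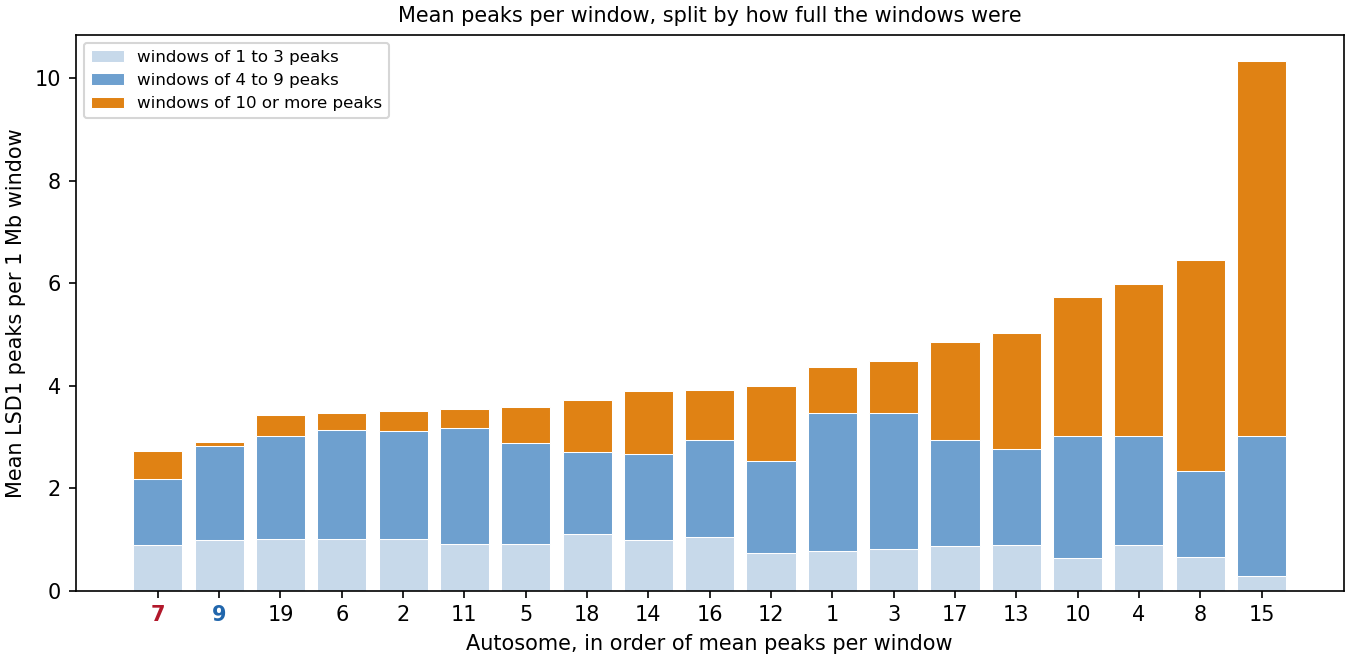
Mean LSD1 peaks per 1 Mb window for the 19 autosomes, in order of that mean; each bar is split into the peaks that lay in windows of 1 to 3, 4 to 9 and 10 or more peaks. Chromosome 9 has almost no contribution from windows of 10 or more (0.0820 peaks per window), and chromosome 7 has the lowest contribution from windows of 4 to 9 (1.28 peaks per window).

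Leaving out the fullest 10% of windows on every chromosome moved the ratios of the pair in opposite directions. Chromosome 9 moved closer to the pooled others, from 0.622 to 0.711 of their density (interval 0.627 to 0.803). Chromosome 7 did not, with 0.559 (0.492 to 0.634). These intervals overlapped each other, and each overlapped that of the same chromosome with all windows. Against chromosomes 2, 6 and 19 alone, the 3 nearest in density, the ratio of chromosome 9 moved little, from 0.835 to 0.858. That of chromosome 7 fell from 0.784 to 0.675.

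Windows without any peak were most frequent on chromosome 7. There 31 of 149 windows (20.8%, interval 14.6 to 28.2%) were empty, against 2.97 to 13.2% on the 17 others. On chromosome 9 the number was 18 of 122 (14.8%, interval 8.98 to 22.3%). With window borders shifted by 0.5 Mb, chromosome 7 still had the highest share of the 19 (18.7%), whereas chromosome 9 fell to 9.02% and the 8th place. The many empty windows of chromosome 9 thus depended on where the borders lay. Empty windows become more frequent by construction as density falls, and the part of density in these shares was not tested. Windows that held a peak held 3.46 on average on chromosome 7 and 3.40 on chromosome 9, the 2 lowest values of the 19, against 5.13 on the others pooled.

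Counts per window varied little on chromosome 9. The variance over its windows was 1.59 times the mean, the lowest of the 19 autosomes (1.89 to 50.2 on the 17 others), and its fullest window held 10 peaks, also the lowest maximum. This ratio moves with the mean and with full windows: among windows under 10 peaks it was 1.49, and 6 of the 17 others were lower. The SD was 74.1% of the mean, next to 73.3% on chromosome 11, and over full 10 Mb windows it was 30.6%, the 5th lowest. On chromosome 7 the variance was 3.76 times the mean, in the middle of the others. Without its 2 fullest windows the value was 2.50.

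The profile along chromosome 7 was uneven, to a degree that lay in the middle of the autosomes. When the span was cut into 3 equal parts, the first held 112 peaks (2.26 per Mb), the middle 176 (3.56) and the last 120 (2.43). The first and last parts were below the matching parts of all 17 others, which began at 2.91 and 2.49 peaks per Mb. The middle part, 53.6 to 103 Mb, lay inside the range of the others (3.38 to 13.7) and above 1 of them. Chromosome 9 held 122, 127 and 105 peaks in its 3 parts, or 3.03, 3.15 and 2.61 per Mb, and only the middle part was below those of all 17 others. Its highest part was 1.21 times its lowest, the 3rd smallest spread of the 19 autosomes, against 1.57 times on chromosome 7.

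**Figure D2:**
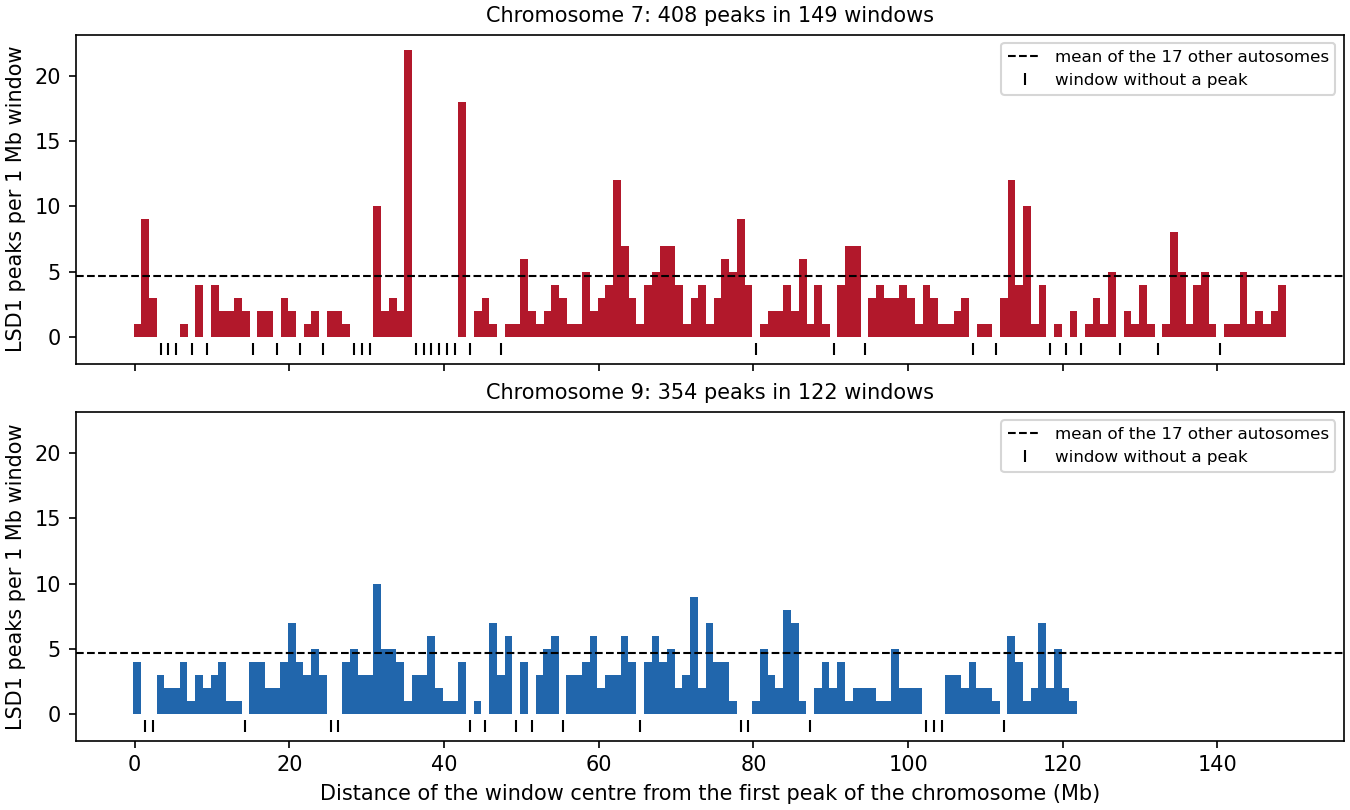
LSD1 peaks per 1 Mb window along chromosomes 7 (top) and 9 (bottom), by distance of the window centre from the chromosome's first peak; ticks under the bars mark windows without a peak and the dashed line is the mean of the 17 other autosomes (4.68). Chromosome 7 has 31 empty windows and isolated full ones of 22 and 18 peaks, and chromosome 9 stays at 10 or fewer throughout.

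At 10 Mb the low number was wide. The 14 full windows of chromosome 7 held 13 to 42 peaks with a median of 27, and the 11 of chromosome 9 held 18 to 46 with a median of 28. The 194 full windows of the other autosomes held 12 to 351 with a median of 39 and a mean of 47.1. The mean is raised by a few windows, and 129 of the 194 were below it, as were all 14 and all 11 windows of the pair. Below the median were 11 of 14 windows on chromosome 7 and 9 of 11 on chromosome 9. None was below the lowest window of the others.

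Along chromosome 7 the windows from 10 to 30 Mb held 18 and 14 peaks, and the window from 30 to 40 Mb was the fullest with 42. The next, from 40 to 60 Mb, held 23 and 21. From 60 to 120 Mb they held 39, 39, 35, 33, 27 and 36 peaks. None of these exceeded the median of the others, and all but the 27 lay above their lower quartile of 29. The emptiest, 120 to 130 Mb with 13 peaks, was followed by 27 and 21. Along chromosome 9 the windows from 10 Mb held 23, 30, 43, 25, 30, 35, 46, 28, 20, 18 and 24 peaks. The fullest lay at 70 to 80 Mb and the emptiest at 100 to 110 Mb. The stretch from 90 to 120 Mb was thus the lowest among the full windows of chromosome 9. It did not reach the distal end: the partial window from 120 Mb to the last peak at 124 Mb held 17 peaks.

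**Figure D3:**
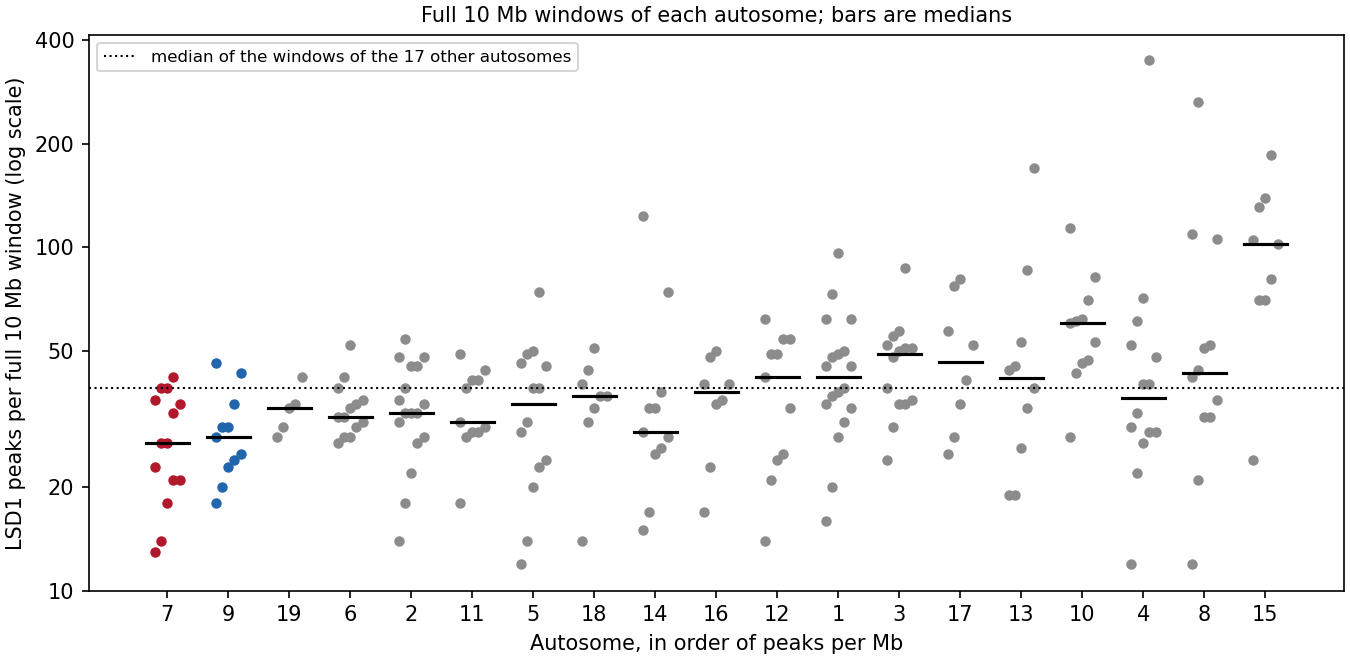
Peaks in every full 10 Mb window of the 19 autosomes on a log axis, with autosomes in order of peaks per Mb; each point is 1 window, bars are the chromosome's median and the dotted line is the median of the windows of the 17 other autosomes (39). The windows of chromosomes 7 and 9 reach 42 and 46 at most, and their lowest values overlap those of other chromosomes.

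Chromosome 7 had the longest stretch without a peak on any of the 19 autosomes. It ran over 7.21 Mb, from 39289299 to 46497685, ahead of a 4.73 Mb gap on chromosome 5. The next gaps of chromosome 7 were 4.08 Mb (6728727 to 10804299) and 3.23 Mb (31803186 to 35031943), the 5th and 9th longest of the autosomes. All 3 lay in the proximal 47 Mb. Runs of at least 3 empty 1 Mb windows were found at 7 to 10, 32 to 35 and 40 to 46 Mb. The 17 other autosomes had 5 such runs in all, and 14 of them had none. Whether these stretches hold sequence to which reads can be mapped was not tested.

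On chromosome 9 the longest gaps were 3.90 Mb (104278430 to 108176910), 2.82 Mb (27950165 to 30772046) and 2.68 Mb (80558014 to 83236557). The only run of 3 empty windows lay at 105 to 108 Mb. Gaps above 1 Mb took up 32.1% of the span in 24 gaps, inside the range of the others (9.69 to 39.9%). On chromosome 7 they took up 50.7% of the span in 45 gaps, above all 17 others. A sparse chromosome has more long gaps by construction, and the part of density in this share was not tested. Of those 45 gaps, 19 lay in the proximal and 26 in the distal part as divided at the midpoint, so shorter empty stretches were spread over the whole chromosome.

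The longest gaps changed the density ratios little. With the longest gap taken out of the span of every chromosome, its ratio to the others was 0.600 in place of 0.584, and that of chromosome 9 was 0.628 in place of 0.622.

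The longest gap of chromosome 7 was bounded on both sides by its largest groups of peaks. On the proximal side, 22 peaks lay between 39066282 and 39289298 (223 kb), with starts a median of 8.08 kb apart. On the distal side, 17 peaks lay between 46497686 and 46580392 (82.7 kb), a median of 2.54 kb apart, and this was also the densest 100 kb of the chromosome. A group here is a chain of peaks in which no step between neighbouring starts exceeds 50 kb. Together these 2 groups held 39 peaks, 9.56% of the chromosome, and they filled its fullest windows, 39 to 40 Mb with 22 peaks and 46 to 47 Mb with 18. The next fullest, at 66 to 67 and 117 to 118 Mb, held 12 each.

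Peaks of both groups had medians near those of the rest of the chromosome. In the proximal group the lengths ran from 212 to 2172 bp with a median of 464, and the scores from 50.1 to 437 with a median of 79.5. In the distal group the lengths ran from 237 to 896 bp with a median of 421, and the scores from 52.8 to 208 with a median of 74.4. For the rest of chromosome 7 the medians were 417 bp in length and 73.8 in score. The score is the peak caller's own value, of unstated scale, and ranks peaks within this list only. Outside the gap and both groups, chromosome 7 had 2.62 peaks per Mb and 19.2% of peaks with a neighbouring start within 10 kb, against 25.7% on the whole chromosome.

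Chromosome 9 had no comparable group. Its largest groups held 4 peaks, and its densest 100 kb, from 88133254 to 88233253, held 5. Its fullest 1 Mb windows were at 34 to 35 Mb with 10 peaks, 75 to 76 Mb with 9 and 87 to 88 Mb with 8. On chromosome 7, 4 groups had 5 or more peaks and held 12.0% of its peaks. On the 17 other autosomes such groups held 22.6% of peaks.

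Peaks on chromosome 9 were spaced more widely than on any other autosome at the short end. Consecutive starts lay a median of 185 kb apart on chromosome 9, 139 kb on chromosome 7 and 75.2 kb on the others pooled. The 10th percentile of the spacings was 12.1 kb on chromosome 9, above all 17 others (1.10 to 9.43 kb), but 3.95 kb on chromosome 7, inside their range. At the long end the order turned: the 90th percentile was 1058 kb on chromosome 7, above all others, and 816 kb on chromosome 9. Chromosome 7 thus combined close groups with wide gaps. Divided by the mean spacing, which removes the density, the median was 0.540 on chromosome 9, the highest of the 19 (at most 0.502 on the 17 others), and 0.380 on chromosome 7.

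A neighbouring start within 10 kb was found for 62 of 354 peaks on chromosome 9 (17.5%, interval 13.7 to 21.9%). This was the lowest share of the 19 autosomes, next to 18.8% on chromosome 6. On chromosome 7 it was found for 105 of 408 (25.7%, interval 21.6 to 30.3%), which was above 3 of the 17 others. Within 1 kb the shares were 2.82% on chromosome 9 and 5.88% on chromosome 7. Peaks with no other start within 100 kb made up 41.5% of chromosome 9 and 36.3% of chromosome 7, the 2 highest shares (10.5 to 35.5% on the 17 others). A sparse chromosome has fewer close neighbours by construction, and the part of density in these shares was not tested.

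**Figure D4:**
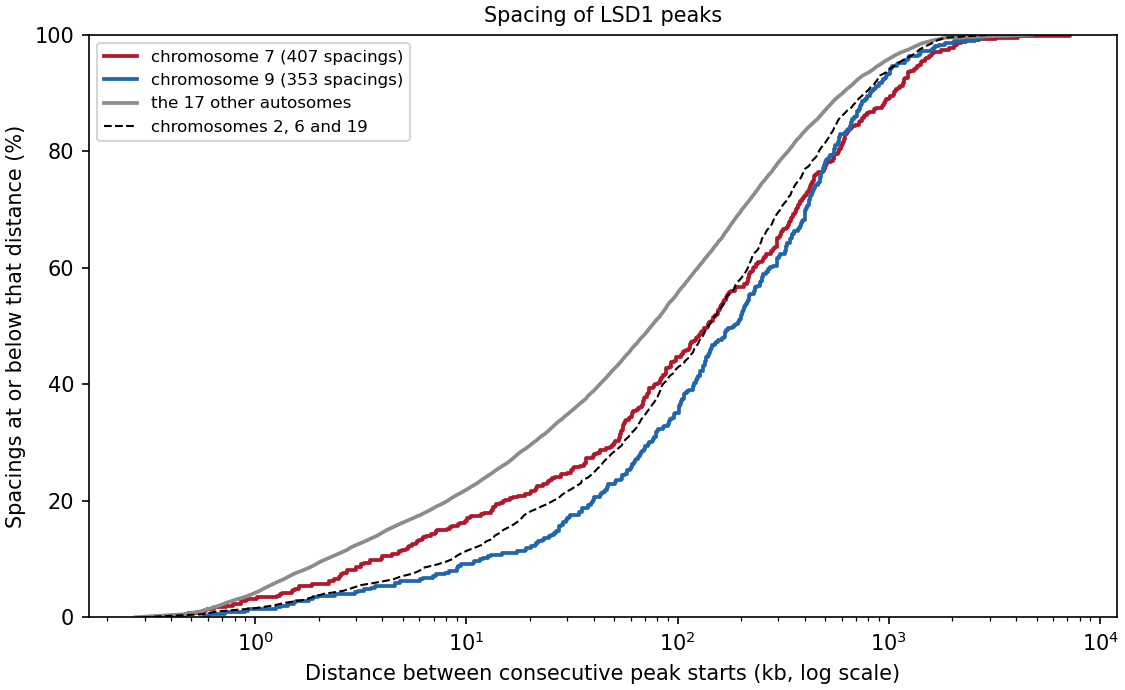
Cumulative share of spacings between consecutive LSD1 peak starts (log axis, kb) for chromosome 7, chromosome 9, the 17 other autosomes and chromosomes 2, 6 and 19. Chromosome 9 lies to the right at short distances (median 185 kb), and chromosome 7 crosses it at long ones.

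Peaks were short on both chromosomes. The median length was 418 bp on chromosome 7 (interval 402 to 436) and 417 bp on chromosome 9 (403 to 440), the 2 lowest of the 19 autosomes. The next was 419 bp, the highest was 486 bp, and the others pooled had 445 bp, and both intervals reached into the range of the 17 others. Few peaks were long. Of the 762 peaks, 6 on chromosome 7 (1.47%, interval 0.542 to 3.17%) and 4 on chromosome 9 (1.13%, interval 0.309 to 2.87%) were 1 kb or longer, against 5.97% on the others pooled and 1.83 to 12.1% on each of them. Chromosomes 2, 6 and 19 pooled had 2.46%, which lies inside both intervals.

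Relative to the others pooled, with their large groups included, the share of long peaks differed most among peaks with close neighbours. On the other autosomes 10.7% of peaks with a neighbour within 10 kb were 1 kb or longer, against 2 of 105 on chromosome 7 (1.90%, interval 0.232 to 6.71%). On chromosome 9 it was 0 of 62, a count that allows a share of up to 4.84% by the limit of 3 counts and 5.78% by the exact interval. Among peaks with no start within 10 kb the shares were 1.32% on chromosome 7 (interval 0.361 to 3.35%), 1.37% on chromosome 9 (0.374 to 3.47%) and 3.61% on the others. Among peaks with none within 100 kb they were 1.35% (0.164 to 4.80%) and 2.04% (0.423 to 5.85%), intervals that include the 3.04% of the others. Median lengths of peaks more than 100 kb from any other had overlapping intervals, at 397 bp (interval 380 to 423), 413 bp (389 to 434) and 403 bp (398 to 409). At 10 to 100 kb they were 443 bp (397 to 486), 422 bp (400 to 458) and 449 bp (441 to 456). Within 10 kb chromosome 7 had 427 bp (402 to 444) against 494 bp on the others (484 to 504), and chromosome 9 had 446.5 bp with an interval of 387 to 517 that includes the value of the others.

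The low density, on which the pair was chosen, is described here by score and length. In the 4 classes cut at the list's score quartiles, the ratio to the other autosomes ran from 0.473 to 0.667 on chromosome 7 and from 0.567 to 0.705 on chromosome 9. Chromosome 7 was lowest in the top class, with 84 peaks (0.473, interval 0.376 to 0.588). In the classes cut at the length quartiles the longest class was lowest on both, at 0.367 on chromosome 7 (interval 0.282 to 0.469) and 0.485 on chromosome 9 (0.377 to 0.615). These ratios are to the others pooled, and single autosomes had similar lengths. The upper quartile of length was 550 bp on chromosome 7 and 567.5 bp on chromosome 9. It was 543 bp on chromosome 6, below both, and 553 bp on chromosome 12, below chromosome 9. Median scores were 74.6 on chromosome 7 and 77.6 on chromosome 9, against 74.3 to 84.4 on the 17 others.

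**Figure D5:**
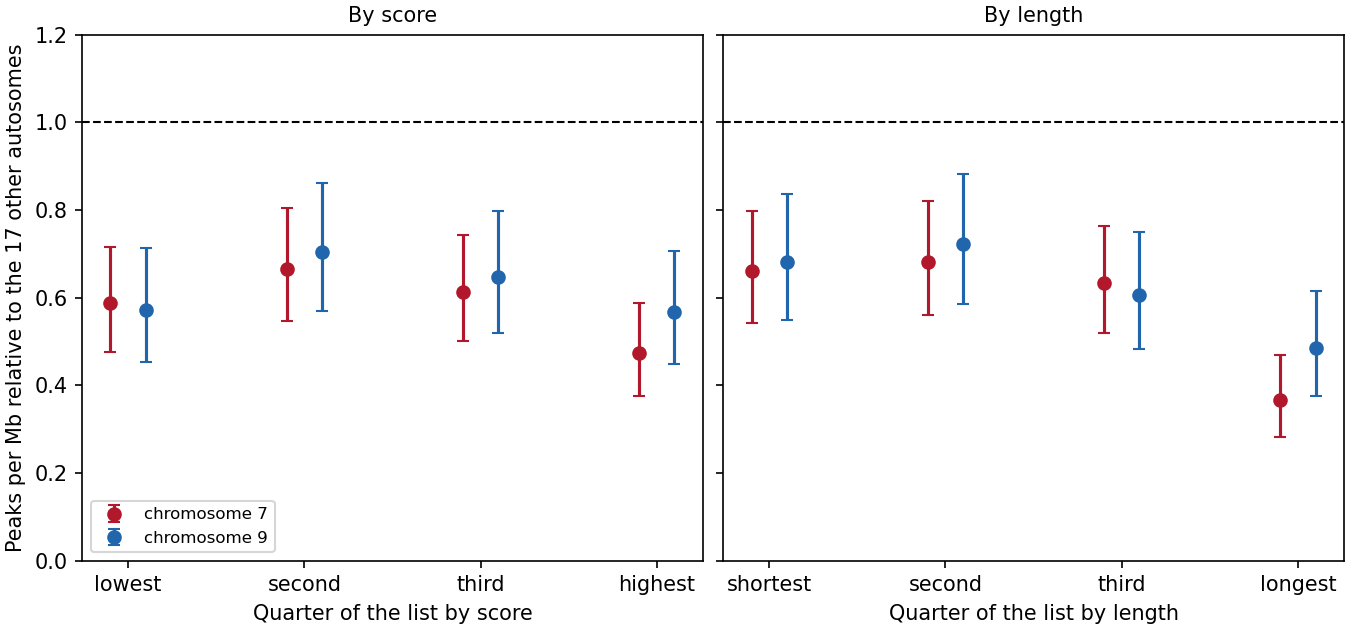
LSD1 peaks per Mb on chromosomes 7 and 9 relative to the 17 other autosomes, in 4 classes of the list by score (left) and by length (right); bars are exact 95% intervals for counting error. The class of the longest peaks is lowest on both chromosomes (0.367 and 0.485).

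The highest score of each chromosome ranked near the top of the autosomal peaks without leading them. On chromosome 7 the highest score, 773.65, belonged to a 1141 bp peak at 74529729 to 74530869 and was 28th among the autosomal peaks. It was followed by 73957170 to 73958179 (score 439.67) and 39066282 to 39067274 (437.23), the latter being the first peak of the proximal group. The 4th and 5th were 139547283 to 139548671 (427.93) and 31802420 to 31803185 (425.97). The last of these was the peak next to the 3.23 Mb gap, with its nearest start 1009 kb away. On chromosome 7, 1 peak scored 500 or more (0.245%), against 1.05% of peaks on the other autosomes pooled. The density ratio in this class was 0.137, with an interval of 0.00344 to 0.780, and rests on 1 peak.

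On chromosome 9, 3 peaks scored 500 or more (0.847%), near the 1.05% on the other autosomes pooled. The density ratio was 0.505, with an interval of 0.102 to 1.52 that includes equal densities. The 3 peaks lay at 77440037 to 77440822 (674.73, 48th among the autosomal peaks), 23104658 to 23105479 (662.82) and 35281709 to 35282532 (571.73), and were 786 to 824 bp long. The next were 86517416 to 86518817 (422.59) and 7784418 to 7785184 (410.0).

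The longest peak of chromosome 7, 2172 bp at 39189975 to 39192146, lay in the proximal group, and the next were 1575 bp at 52446520 to 52448094 and the 1389 bp peak at 139547283. On chromosome 9 the longest were 1656 bp at 101403236 to 101404891, the 1402 bp peak at 86517416 and 1117 bp at 57448723 to 57449839. No peak of chromosome 9 reached 2 kb.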

How the data were processed

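One deposited peak list was analysed. Reads were aligned with BWA to mm9, per the submitters' processing notes, and the authors called peaks of LSD1 ChIP against input with MACS in Galaxy, per the file headers. Their versions, settings and read filters are not stated in the sources used here. The deposited score per peak has no stated scale. No read numbers are in the file and depth is unknown. A share of 0 is given with the limit that 3 counts allow.

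Entries of chromosomes 7 and 9 were taken by name, with positions made 1-based. Windows run from the one with a chromosome's first peak start to the one with its last, and full 10 Mb windows lie wholly inside the span. Ratios have conditional exact binomial intervals, shares Clopper-Pearson intervals and medians order-statistic intervals, all at 95%. Functions were tested on simulated data.

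The peaks named are the 5 highest scores and 3 longest of each chromosome, and the stretches are the 3 longest gaps, runs of 3 or more empty windows, fullest windows, densest 100 kb and chains of at least 20 starts within 50 kb (the proximal group). Members, measures and named groups were chosen with earlier results of these data known. The classes of window fullness, the parts of the span and the distal group were chosen after the values were seen. Tables of another build (GRCm38) were not used here, so sequence, genes and motifs were not analysed here. Python 3.11.15, numpy 2.4.6, pandas 2.3.3, scipy 1.17.1 and matplotlib 3.10.9 were used.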

Additional observations from a re-analysis of the deposited data

How the results depend on the processing

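Under other settings 70 values were computed, and the shares, lengths and scores among them have no direction that could turn. Chromosome 7 remained the sparsest and chromosome 9 the second sparsest autosome in each of the 4 reduced peak sets. Because the pair was picked for low numbers in this same list, this order and low density ratios are no independent support. The density ratio stayed below 1 in all 16 cases; it was 0.724 on chromosome 9 with peaks within 10 kb counted once, and 0.687 and 0.732 with the median of the 17 densities as reference (chosen after seeing the data). In the upper part of the list by score, divided at its median, which leaves fewer peaks by construction, empty windows were 43.0 and 33.6% on chromosomes 7 and 9, peaks with a neighbour within 10 kb 16.2 and 10.3%, median lengths 517 and 526.5 bp, and median scores 111.0 and 113.93. By construction, the share with a neighbour was 5.88 and 2.82% within 1 kb, and 44.6 and 41.8% within 50 kb. The share of the difference held in full windows was 73.1 and 109% with full windows of 8 or more, 41.4 and 60.3% with 15 or more, and 51.1 and 88.8% without chromosome 15 (all chosen after seeing the data). A share above 100% means that windows under 8 peaks, taken over all windows, contributed more on chromosome 9 than on the others. No paired analysis was possible because there was 1 library of each kind, so no replicate could be left out either.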
